A study of Rattus norvegicus and Mus musculus with 25 samples.

Results

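The genes described here are 45 genes of mitosis and cytokinesis, chosen by name, at a time when earlier results of these data were known, and read from 3 tables of CPM values (a gene's counts scaled by its library's total). Rat held 44 of them among 28909 rows per table, with no row for Ccnb2, and mouse held 44 among 54087 rows, with no row named Kif4a. All 44 in each species passed the filter on low values and were tested. The mouse row Kif4 was not counted as a member. By role the 45 were 9 genes of mitotic entry, 2 of chromosome structure, 10 of spindle assembly, 9 of the kinetochore and checkpoint, 4 of the chromosomal passenger complex, 3 of mitotic exit and 8 of the central spindle and cytokinesis.

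The 25 libraries came from cardiomyocytes in which Vldlr, the gene of the very low density lipoprotein receptor, or a secreted protein that the series names beside it (Reelin, or thrombospondin-1 encoded by Thbs1), was altered. In rat, ventricular cardiomyocytes of 1-day-old SD rats (NRVC) were digested from tissue, freed of fast-attaching cells by pre-plating and cultured, and they gave 8 groups of 2 libraries. Cells received si-Vldlr or its control siRNA (si-Control_v) at 50 nM for 60 h, or Reelin or PBS for 48 h, or a virus for 72 h. The virus of the Vldlr OE group was AAV9-cTnT-Vldlr, in which a cardiomyocyte promoter (cTnT) drives Vldlr, and the treatment text names AAV9-CMV-GFP, with a general promoter, as its comparator. The sample labels call the comparator group Control. Its 2 columns are headed Blank in the table and were taken as Control because no other column was left for that group, so whether these cells received the GFP virus or none is not known. These 12 libraries form 1 table. A second table of 4 libraries holds si-Thbs1 and its control siRNA (si-Control_t), both at 50 nM for 60 h. In mouse, cardiomyocytes of 1-day-old C57BL/6 animals gave 3 groups of 3 libraries: Vldlr f/f (both copies floxed, no Cre), Myh6-Cre;Vldlr f/+ (1 floxed copy) and Myh6-Cre;Vldlr f/f (both copies floxed). All mouse groups thus carry a floxed allele, and Cre is driven by the Myh6 promoter, which is active in cardiomyocytes. No group carries Cre without a floxed allele, so an effect of Cre and of Vldlr loss cannot be told apart against Vldlr f/f. The labels do not say whether replicates were separate cultures or animals, so the p-values cover no more than the spread among these libraries, which could be technical.

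As background, a cell enters mitosis when the kinase Cdk1, bound to cyclin A2 or cyclin B, becomes active. Motor proteins then build the spindle, kinetochores attach chromosomes to it, the checkpoint holds the cell until every chromosome is attached, and the ubiquitin ligase APC/C with Cdc20 starts anaphase, after which the central spindle and a contractile ring divide the cell. Most of these genes are transcribed in the late part of the cell cycle and silent in resting cells. Cardiomyocytes lose most of their ability to divide soon after birth, and many of their late cycles end without cytokinesis.

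Many late cell cycle promoters are known for a pair of short elements, the CHR (TTTGAA), where the MuvB complexes bind, and the CCAAT box, where NF-Y binds. Promoter windows from RefSeq (rat, build GRCr8, 250 bases before to 50 after the annotated start) were found for 37 of the 45 members. No window was matched to Foxm1, Ccna2, Pbk, Tpx2, Aurkb, Incenp, Ube2c or Racgap1. A gene with more than 1 window counted if any of them matched. On either strand, TTTGAA occurred in 25 of the 37 members (67.6%), against 19.4% of all 27457 genes with a window and 12.2% of the 9812 protein-coding genes tested in the larger rat table. CCAAT occurred in 26 members (70.3%), against 39.6% and 38.7%, and both occurred in the same window in 19 (51.4%), against 7.96% and 4.88%. A match is a description of letters and not of binding. The 120 bases before the start are printed for 7 members whose values are given below, because they show the range from both motifs close to the start, through one, to none. Capitals mark TTTGAA and CCAAT, or their reverse complements TTCAAA and ATTGG.
Cdk1: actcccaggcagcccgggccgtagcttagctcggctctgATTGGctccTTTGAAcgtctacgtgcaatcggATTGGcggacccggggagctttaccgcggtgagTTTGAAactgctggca
Cdc20: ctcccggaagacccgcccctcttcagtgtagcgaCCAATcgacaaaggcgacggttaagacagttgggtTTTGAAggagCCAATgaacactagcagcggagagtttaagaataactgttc
Top2a: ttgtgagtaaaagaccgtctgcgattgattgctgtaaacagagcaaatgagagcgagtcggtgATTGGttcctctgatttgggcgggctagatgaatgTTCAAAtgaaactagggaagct
Prc1: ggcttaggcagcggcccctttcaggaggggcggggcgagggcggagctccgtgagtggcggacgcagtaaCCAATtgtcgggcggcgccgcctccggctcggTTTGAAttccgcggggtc
Ccnb1: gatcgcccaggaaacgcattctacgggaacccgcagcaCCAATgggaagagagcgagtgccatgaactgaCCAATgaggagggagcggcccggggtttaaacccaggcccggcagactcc
Birc5: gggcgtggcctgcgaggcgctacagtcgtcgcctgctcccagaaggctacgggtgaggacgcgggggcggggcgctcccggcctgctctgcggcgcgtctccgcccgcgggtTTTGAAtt
Bub1: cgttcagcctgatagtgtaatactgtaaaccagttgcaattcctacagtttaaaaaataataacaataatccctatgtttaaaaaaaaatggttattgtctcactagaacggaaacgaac
In GRCr8 these are Cdk1 at chr20:19265173-19265292, plus strand, Cdc20 at chr5:137255800-137255919, minus strand, Top2a at chr10:84473094-84473213, minus strand, Prc1 at chr1:143659361-143659480, plus strand, Ccnb1 at chr2:33655226-33655345, minus strand, Birc5 at chr10:103572026-103572145, plus strand, and Bub1 at chr3:135504922-135505041, minus strand, each the flank upstream of the annotated gene. The TTTGAA nearest to the start began 16 bases before it in Cdk1, 51 in Cdc20, 22 in Top2a, 18 in Prc1 and 8 in Birc5. The CCAAT nearest to the start began 49 bases before it in Cdk1, 41 in Cdc20, 57 in Top2a, 50 in Prc1 and 50 in Ccnb1. The Ccnb1 stretch held 2 CCAAT and no TTTGAA, the Birc5 stretch 1 TTTGAA and no CCAAT, and the Bub1 stretch neither. The whole Birc5 window held 1 CCAAT outside the printed stretch, so Birc5 is among the members counted with both.

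Some libraries stood apart from their own group in nearly all members at once. In the 12-library rat table the summed level of the 44 members was 1813 and 1584 CPM in si-Control_v, 1334 and 1362 CPM in si-Vldlr, 1466 and 1440 CPM in PBS, and 1611 and 1527 CPM in Reelin. It was 447 and 928 CPM in Control and 439 and 402 CPM in Vldlr OE, so all 4 libraries of these 2 groups lay below the other 8 of that table. Agent and treatment time differ between these experiments and cannot be told apart. The 2 Control libraries differed 2.08-fold in the sum, and every one of the 44 members was lower in Control column 1 than in column 2 (median log2 difference -0.98, where the median over all genes was -0.027). In the 4-library table the sum was 1124 and 797 CPM in si-Control_t, with 44 of 44 members higher in replicate 1, and 1971 and 1677 CPM in si-Thbs1. In mouse it was 221, 653 and 551 CPM in Vldlr f/f, 430, 682 and 955 CPM in Myh6-Cre;Vldlr f/+, and 729, 772 and 1123 CPM in Myh6-Cre;Vldlr f/f. Vldlr f/f replicate 1 was lower than replicate 2 in 43 and lower than replicate 3 in 44 of 44 members. Myh6-Cre;Vldlr f/+ replicate 1 was lower than replicate 3 in 43 of 44. In bulk RNA, fewer dividing cells and less of these transcripts per dividing cell cannot be told apart.

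**Figure D1:**
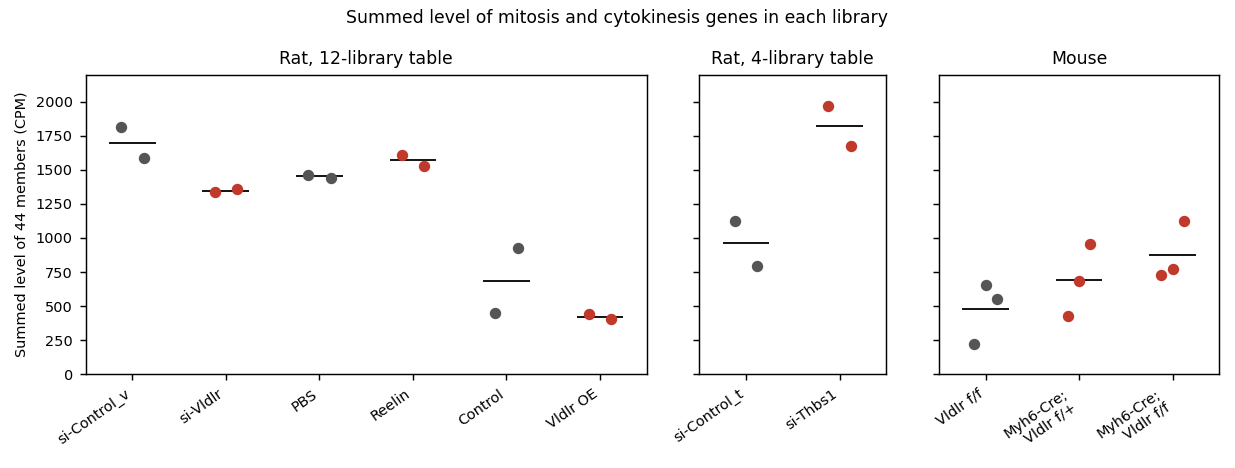
Summed level of the 44 mitosis and cytokinesis genes (CPM, linear axis from 0) in each library, 1 point per library, grey for controls and red for treated or Cre groups, with a bar at each group mean. The 2 Control libraries sit at 447 and 928 CPM and the si-Thbs1 libraries, at 1971 and 1677 CPM, lie above both of their controls.

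The cultures also held cells other than cardiomyocytes. The cardiomyocyte marker list had 12 genes with a row in rat and 13 in mouse. Summed over it, rat libraries had 27220 to 46100 CPM, and over the 9 fibroblast markers 28150 to 46570 CPM. The mouse libraries had 55190 to 69900 CPM of cardiomyocyte and 2989 to 5657 CPM of fibroblast markers. Erythroid markers summed to at most 0.597 CPM in rat and to 1812 to 3960 CPM in mouse. Of the 7 listed, only 3 had a row in rat and 5 in mouse, so these sums cannot be compared between species. Which cells carried the mitosis transcripts was not tested.

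**Figure D2:**
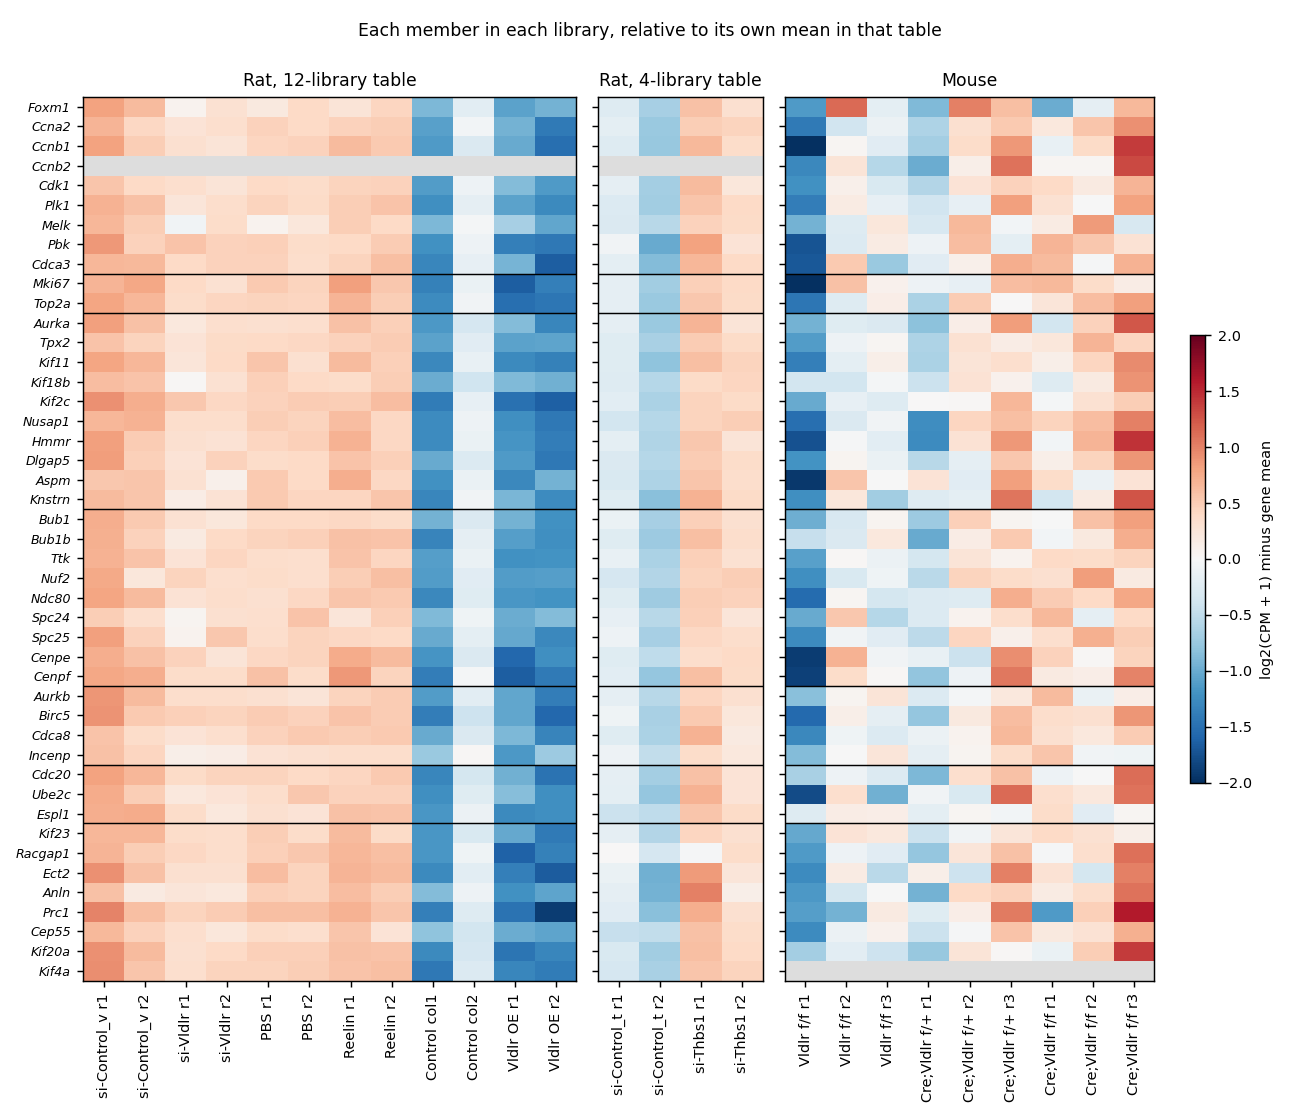
Each member (rows, ordered by role, with black lines between roles) in each library (columns), as log2(CPM + 1) minus that gene's mean over the libraries of its table, red above and blue below; colours end at -2 and 2, and grey marks a gene with no row. Control column 1, both Vldlr OE libraries, si-Control_t replicate 2 and Vldlr f/f replicate 1 have 0 of 44 members above the gene's mean, and Control column 2 and si-Control_t replicate 1 have 1 each.

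Knockdown of the receptor in rat was checked first on Vldlr itself, which stood at 177 ± 8.38 CPM with si-Vldlr and at 255 ± 3.28 CPM with si-Control_v (SD, n = 2 each; limma adjusted p = 0.348). All 44 members had a lower mean in si-Vldlr (53.9% of all genes did), with a median log2 fold change of -0.34 on the log2(CPM + 1) scale (1.27-fold lower), where the median over all 13860 genes was -0.02. That scale is used for all fold changes below and understates the change of low genes. In 40 of 44 members the treated libraries did not overlap the controls and were lower, as in 27.4% of all genes. The exceptions were Pbk, Nuf2, Spc25 and Anln. No member passed limma's test (adjusted p under 0.05), which 0.0289% of all genes did. At an unadjusted p under 0.05, 2 members were lower (6.39% of all genes were).

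The largest difference was in Foxm1, the transcription factor that drives many genes of late cell cycle. Foxm1 stood at 16.7 and 19.6 CPM with si-Vldlr and at 28.3 and 25.1 CPM with si-Control_v, a log2 fold change of -0.53 ± 0.20 (SE; unadjusted p = 0.02299, limma adjusted p = 0.366). The groups did not overlap, and the control libraries lay the higher. Kif18b, a motor that shortens microtubules at their plus ends, was 11.5 and 14.2 against 17.9 and 17.2 CPM (-0.43 ± 0.18, unadjusted p = 0.03503, limma adjusted p = 0.398). Ccnb1, the cyclin that activates Cdk1, was 33.9 and 32.5 against 47.8 and 38.3 CPM, and Cdk1 was 50.3 and 47.8 against 59.2 and 52.5 CPM. Both were lower in each treated library than in either control, Cdk1 by less (log2 fold change -0.18 ± 0.25) than Ccnb1 (-0.36 ± 0.24).

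Of the genes of chromosome structure, Mki67, which coats mitotic chromosomes, was 75.4 and 70.8 CPM after knockdown against 91.9 and 98.2 CPM. Top2a, the topoisomerase that untangles sister chromatids, was 94.2 and 98.7 against 126 and 117 CPM. Both were lower without overlap. In spindle assembly all 10 members were lower without overlap (median log2 fold change -0.35), among them the centrosomal kinase Aurka at 18.4 and 20.02 against 28.4 and 24.03 CPM and the spindle motor Kif11 at 32.96 and 36.7 against 48.2 and 44.2 CPM. At the kinetochore 7 of 9 did not overlap. The checkpoint kinase Bub1 was 29.8 and 28.1 against 40.04 and 34.6 CPM, and Ndc80, which holds microtubules, was 21.9 and 22.8 against 31.4 and 28.03 CPM. Nuf2, a partner of Ndc80 in the same complex, differed least of all members: 18.6 and 17.1 against 23.1 and 15.8 CPM, with 1 control below both treated libraries.

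The chromosomal passenger complex, which corrects wrong attachments and then marks the division site, was lower without overlap in all 4 members. Its kinase Aurkb was 26.5 and 26.7 against 38.8 and 32.5 CPM and its subunit survivin (Birc5) 19.4 and 19 against 26.4 and 20.3 CPM. The 3 genes of mitotic exit were lower too, with the APC/C activator Cdc20 at 47.8 and 50.1 against 64.9 and 58.2 CPM and the ubiquitin-conjugating enzyme Ube2c at 19.1 and 19.9 against 28.1 and 23.3 CPM. In cytokinesis 7 of 8 did not overlap. Ect2, which activates RhoA at the division plane, was 38.2 and 38.4 against 58.6 and 46.1 CPM, and Racgap1, a centralspindlin subunit that binds Ect2, 28.3 and 26.9 against 34.1 and 29.7 CPM. The ring scaffold Anln overlapped, at 60.9 and 59.7 against 77.7 and 58.5 CPM, and 1 control lay below both treated libraries.

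Among 53 other mitosis genes, 50 were lower and 3 higher in si-Vldlr (median -0.27), and none passed the adjusted test. The smallest p was that of Bora, a cofactor of Aurka, at 6.58 ± 0.413 against 12.04 ± 0.867 CPM (log2 fold change -0.78 ± 0.16, limma adjusted p = 0.163). Troap followed at 12.4 ± 0.852 against 22.2 ± 4.74 CPM, and then Pkmyt1, an inhibitory kinase of Cdk1, at 7.84 ± 0.0783 against 11.1 ± 0.41 CPM. Marker lists moved in the same comparison: all 12 cardiomyocyte markers were lower, their sum being 30470 to 31420 CPM against 34770 to 37460 CPM, and all 7 tested macrophage markers were lower, at 488 to 588 against 547 to 951 CPM. Smooth muscle and pericyte markers were higher in 6 of 7, at 3660 to 3731 against 2733 to 3212 CPM, and epicardial markers in 5 of 7, at 150.7 to 159 against 142 to 144 CPM. Fibroblast markers were 36080 to 38370 against 35720 to 37860 CPM. Their part in the result was not tested. The spread in this fit is shared with the 2 unlike Control libraries. In a fit without the Control and Vldlr OE libraries, chosen after seeing the data, 34 members were lower at unadjusted p under 0.05 (10.4% of all genes were) and none passed the adjusted test, which 0.0947% of all genes did (smallest limma adjusted p of a member = 0.0968). In a limma fit of the 2 groups alone, 26 members were lower at unadjusted p under 0.05, and 27 with the replicate number as a block. In these fits 13.6% and 17.2% of all genes had such a p in either direction. No member passed the adjusted test in them. Without si-Control_v replicate 1, 41 members were lower and 3 higher.

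Added Reelin gave small differences. Of 44 members 41 had a higher mean than in PBS (58.5% of all genes did) and 3 a lower mean, with a median log2 fold change of 0.11 against 0.023 over all genes and a range from -0.089 to 0.29. Both Reelin libraries lay above both PBS libraries in 23 members, where 19.7% of all genes did. None passed limma's test (0.0144% of all genes did), and none had an unadjusted p under 0.05 (0.844% of all genes were higher at that p).

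The smallest p was that of Melk, a mitotic kinase, which was 11.3 and 10.6 CPM in Reelin and 8.27 and 9.33 CPM in PBS (log2 fold change 0.29 ± 0.26, unadjusted p = 0.292, limma adjusted p = 1). Espl1, the separase that cuts cohesin at anaphase, was 21.3 and 21.2 against 17.6 and 17.02 CPM. Cenpe, a kinetochore motor, was 42.6 and 39.2 against 33.8 and 34.5 CPM. These 3 and Aurka, at 24.03 and 22.3 against 19.95 and 20.03 CPM, were higher in both Reelin libraries. Of the genes of entry and chromosome structure, Ccnb1 was 42.5 and 39.02 against 36.7 and 37.5 CPM, Cdk1 54.5 and 55.1 against 52.9 and 51.8 CPM, Mki67 102 and 83.8 against 82.6 and 78.4 CPM and Top2a 117 and 103 against 99.5 and 98.4 CPM. Those 4 did not overlap, though the gap between the groups was narrow for Cdk1 and Mki67. Foxm1 overlapped, at 19.1 and 21.7 against 18.3 and 21.2 CPM, and so did Kif11, at 43.2 and 39.02 against 41.1 and 34.8 CPM.

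Further along mitosis, Ndc80 was 26.6 and 26 against 22.5 and 23.95 CPM, Aurkb 28.5 and 29.8 against 26.1 and 24.8 CPM and Birc5 20.8 and 20.02 against 19.97 and 19.3 CPM, all higher without overlap. In cytokinesis, Racgap1 at 33.6 and 32.2 against 29.4 and 30.8 CPM, Ect2 at 49.4 and 48.1 against 47.3 and 41.9 CPM and Anln at 79.9 and 72.9 against 72.1 and 70.6 CPM were also higher in both. Cdc20, at 49.5 and 53 against 50.1 and 48.5 CPM, and Ube2c, at 22.9 and 22.98 against 21.2 and 24.4 CPM, overlapped. The 3 members with a lower mean were Spc24, of the Ndc80 complex, at 9.28 and 11.1 against 9.92 and 11.8 CPM, Bub1 at 31.9 and 30.9 against 31.9 and 31.9 CPM, and Kif18b at 14.9 and 16.3 against 16.1 and 15.2 CPM, all overlapping. Among the other mitosis genes 34 of 53 were higher and 19 lower (median 0.036), and the first by p were Pkmyt1 (0.20 ± 0.14), Psrc1 (-0.20 ± 0.17) and the microtubule polymerase Ckap5 (0.11 ± 0.10), each at limma adjusted p = 1. Cardiomyocyte markers summed to 31000 to 32510 CPM in Reelin and 29700 to 31020 CPM in PBS, and macrophage markers to 1039 to 1104 against 912 to 977 CPM. Smooth muscle and pericyte markers were higher in 6 of 7, at 5173 to 5205 against 4908 to 5118 CPM, and epicardial markers lower in 4 of 7, at 181 to 182.5 against 189 to 192 CPM. Whether any of these bears on the members was not tested.

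The gene carried by the virus, Vldlr, was at 656.5 to 889 CPM in Vldlr OE against 379 to 577 CPM in Control (limma adjusted p = 0.958). The Control libraries here are those of unknown treatment, with the GFP virus or without. All 44 members had a lower mean in Vldlr OE, where 57.2% of all genes did (median log2 fold change -0.55, 1.46-fold lower, against -0.026 over all genes). In 18 members both Vldlr OE libraries lay below both Control libraries (15.5% of all genes did), and 22 members were lower at unadjusted p under 0.05 (3.15% of all genes were). None passed limma's adjusted test, which 0.00722% of all genes did. The spread in this fit is shared with the other groups of the table. In a limma fit of the 2 groups alone, 4 members were lower at unadjusted p under 0.05. In that fit 1.41% of all genes had such a p in either direction. The size rested on 1 library: without Control column 2 the median was -0.086, with 28 members lower and 16 higher. Without Control column 1 it was -0.995 and 27 members passed (0.578% of all genes did). A single library then stands for the Control group and is assumed to vary like the other groups.

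The values show this gene by gene. Prc1, which bundles antiparallel microtubules of the central spindle, was 19.9 and 14.6 CPM in Vldlr OE and 21.6 and 47.7 CPM in Control columns 1 and 2 (log2 fold change -0.88 ± 0.29, unadjusted p = 0.0119, limma adjusted p = 0.958). Racgap1 was 6.12 and 7.53 against 8.81 and 19.6 CPM, and Anln was 21.6 and 24.1 against 27.6 and 47.7 CPM. Control column 1 lay above the Vldlr OE libraries by a little in each and column 2 by far more. Ect2 (11.3 and 8.998 against 12.1 and 26.3 CPM), Top2a (25.02 and 26.1 against 30.1 and 69.7 CPM) and Dlgap5, a stabiliser of kinetochore microtubules (12.9 and 10.3 against 14.1 and 24.04 CPM), had the same order. So did Mki67 (17.6 and 21.6 against 21.8 and 51.7 CPM) and Foxm1 (7.03 and 7.75 against 8.04 and 13.5 CPM), though in both the gap to column 1 was small. For Bub1, 11.9 and 9.77 against 11.9 and 19.3 CPM, column 1 and the higher Vldlr OE library were equal to the digits given.

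In 26 members Control column 1 fell within or below the Vldlr OE libraries. Ccnb1 was 12.8 and 8.85 against 11.7 and 21.8 CPM, Cdk1 21.5 and 17.5 against 17.9 and 37.1 CPM and Aurkb 9.53 and 7.25 against 8.95 and 17.6 CPM. In these column 1 lay between the treated libraries. For Cdc20 (18.2 and 12.5 against 14.2 and 28.5 CPM), Aurka (8.12 and 5.76 against 6.54 and 12.3 CPM) and Birc5 (6.17 and 3.97 against 4.67 and 9.99 CPM) it also did. It was the lowest of the 4 libraries for Ube2c (8.62 and 6.45 against 6.42 and 13.7 CPM), Ndc80 (7.32 and 7.201 against 6.64 and 14.9 CPM) and Kif18b (5.69 and 5.33 against 5.22 and 8.33 CPM, the smallest log2 fold change at -0.23 ± 0.18). Kif11 was 10.9 and 10.2 against 10.7 and 24.7 CPM.

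Of the other mitosis genes 51 of 53 were lower (median -0.35) and none was called. Pkmyt1 was 4.19 ± 0.497 against 6.65 ± 1.32 CPM, Fbxo5, an inhibitor of the APC/C, 4.52 ± 1.096 against 8.11 ± 1.95 CPM, and the kinesin Kif20b 4.74 ± 0.722 against 10.2 ± 5.17 CPM (limma adjusted p = 0.958 for each). Cardiomyocyte markers were lower in 11 of 12, at 27320 to 28950 against 29280 to 30720 CPM. Fibroblast markers were lower in 7 of 9, at 33820 to 38420 against 35690 to 40090 CPM. Smooth muscle and pericyte markers were lower in 6 of 7, and endothelial, macrophage and epicardial markers in 5 of 7 each, with sums that overlap. Their part in the result was not tested.

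Knockdown of Thbs1 left it at 546 to 745 CPM in si-Thbs1 against 892 to 943.5 CPM in si-Control_t (log2 fold change -0.52 ± 0.19, limma adjusted p = 0.821). All 44 members had a higher mean in si-Thbs1, where 58.4% of all genes did. Their log2 fold changes ran from 0.34 to 1.13 with a median of 0.92 (1.89-fold), and the median over all 13416 genes was 0.032. In 43 members both si-Thbs1 libraries lay above both controls (18.5% of all genes did), and 43 were higher at unadjusted p under 0.05 (3.03% of all genes were). None passed limma's adjusted test (smallest adjusted p = 0.471), which 0.0447% of all genes did. The count depended on the fit: 9 members passed with the replicate number as a block (0.321% of all genes did; smallest limma adjusted p = 0.0291), and 28 passed without si-Control_t replicate 1 (2.02% of all genes did), where 1 library stands for the control. The numbers could not be shown to pair the samples, with 2 of each. The member sum was 1971 and 1677 CPM in si-Thbs1 and 1124 and 797 CPM in si-Control_t. In si-Control_v, the other control siRNA at the same dose and time, it was 1813 and 1584 CPM in its own table. Why the 2 control siRNA groups differ was not tested.

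In mitotic entry, Foxm1 was 29.5 and 24.3 CPM in si-Thbs1 and 16.01 and 11.8 CPM in si-Control_t (log2 fold change 0.91 ± 0.21, limma adjusted p = 0.471). Ccnb1 was 52.8 and 43.3 against 27.8 and 19.3 CPM (1.02 ± 0.22), and Cdk1 was 60.8 and 45.6 against 34.1 and 23.9 CPM (0.86 ± 0.23). In each the lower treated library exceeded the higher control. Mki67, at 104 and 98.1 against 65.2 and 45.7 CPM, and Top2a, at 130.1 and 116 against 78.9 and 52.7 CPM, had treated libraries closer to each other than the controls were.

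Among spindle genes the smallest p was that of Nusap1, a microtubule bundler, at 34.7 and 35.8 against 19.3 and 16.7 CPM (0.93 ± 0.15, unadjusted p = 0.00105, limma adjusted p = 0.471). Kif11 was 53.6 and 47.99 against 29.5 and 19.7 CPM and Aurka 29.5 and 21.7 against 15.7 and 10.3 CPM. All 10 spindle members were higher without overlap, by a median of 0.90. The 9 kinetochore members were likewise higher (median 0.80), with Ndc80 at 34.9 and 33.9 against 20.4 and 14.5 CPM and Bub1 at 39.9 and 36.03 against 25.8 and 17.7 CPM. The 4 passenger genes had the lowest median of the 7 roles, 0.74, with Aurkb at 35.8 and 33.1 against 23.1 and 17.6 CPM and Birc5 at 28.95 and 23.4 against 18.6 and 12.3 CPM.

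At mitotic exit, Cdc20 was 77.9 and 62.9 against 45.3 and 31.99 CPM, Ube2c 32.97 and 24.2 against 17.2 and 11.2 CPM and Espl1 26.9 and 23.7 against 13.2 and 12.3 CPM. None of these overlapped, and Espl1 had the tightest controls of the 3. Cytokinesis genes held both ends of the range. Anln was 86.3 and 46.2 against 37.2 and 21.4 CPM, the largest log2 fold change (1.13 ± 0.38) with a wide spread, and Ect2 was 66.3 and 43.3 against 33.1 and 18.3 CPM. Cep55, which brings in the abscission machinery, was 19.6 and 16.7 against 9.01 and 8.797 CPM, and the chromokinesin Kif4a 28.7 and 26.7 against 15.03 and 11.9 CPM. Racgap1 alone overlapped, at 21.8 and 28.9 against 22.2 and 17.3 CPM: si-Thbs1 replicate 1 was below a control (0.34 ± 0.21, 95% interval -0.18 to 0.86, unadjusted p = 0.159, limma adjusted p = 1).

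**Figure D3:**
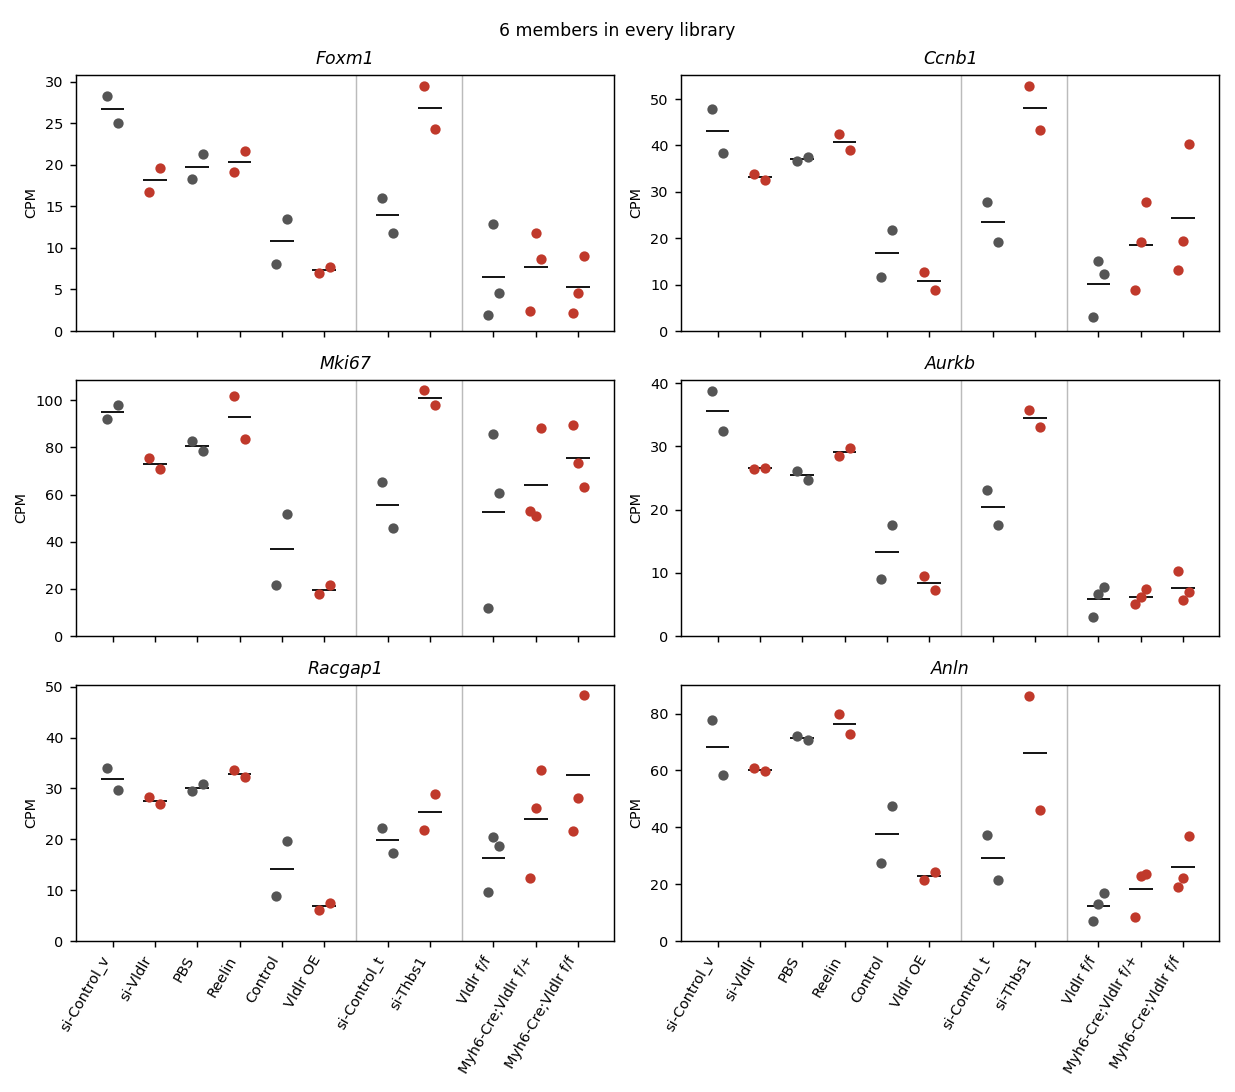
Levels (CPM, linear axes from 0) of Foxm1, Ccnb1, Mki67, Aurkb, Racgap1 and Anln in every library, 1 point per library with a bar at the group mean, grey for controls and red for treated or Cre groups; vertical lines part the 3 tables. Racgap1 overlaps between si-Thbs1 (21.8 and 28.9 CPM) and its control (22.2 and 17.3 CPM), where the other 5 do not.

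All 53 other mitosis genes were higher in si-Thbs1 without overlap (median 0.86), 48 at unadjusted p under 0.05 and none at the adjusted threshold. Cit, the citron kinase of the midbody, was 55.3 ± 1.91 against 29.4 ± 2.62 CPM, Kif20b 29.9 ± 0.261 against 13.8 ± 2.84 CPM and the spindle motor Kif15 12.7 ± 0.846 against 6.02 ± 0.349 CPM (limma adjusted p = 0.471 for each). All 9 fibroblast markers had a lower mean, with sums of 28150 to 34660 against 33090 to 38500 CPM that overlap, and all 7 epicardial markers were lower, at 132 to 135 against 157 to 162.5 CPM. Cardiomyocyte markers overlapped widely, at 27220 to 46100 against 30560 to 38370 CPM. Their part in the result was not tested.

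In mouse, Vldlr was 71.3 to 85.1 CPM in Myh6-Cre;Vldlr f/f, 98.4 to 112 CPM in Myh6-Cre;Vldlr f/+ and 108.5 to 195 CPM in Vldlr f/f. Transcript counted to Vldlr was thus present in every Cre library. The 3 comparisons share groups. Set against Vldlr f/f, 43 of 44 members had a higher mean in Myh6-Cre;Vldlr f/f (33.9% of all genes did), with a median log2 fold change of 0.90 against -0.11 over all 14922 genes. In 19 members the 3 Cre libraries lay above all 3 Vldlr f/f libraries (1.72% of all genes did), and 20 were higher at unadjusted p under 0.05 (0.617% of all genes were). No member passed limma's adjusted test, and neither did any other gene (0% called). By edgeR's quasi-likelihood test 19 members were higher at unadjusted p under 0.05 (1.21% of all genes were) and none passed. Scaling by upper quartile moved the median over all genes to 0.011 and that of the members to 1.03; such scaling shifts all genes of a library together. Without Vldlr f/f replicate 1, the median of the members was 0.53 and none had an unadjusted p under 0.05.

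Ccna2, the cyclin of S phase and early mitosis, had the smallest p among the members. Ccna2 was 33.7, 42.7 and 55.1 CPM in Myh6-Cre;Vldlr f/f and 10.2, 21.98 and 26.4 CPM in Vldlr f/f (log2 fold change 1.20 ± 0.39, unadjusted p = 0.0122, limma adjusted p = 0.997), with no overlap. Spc25, of the Ndc80 complex, was 11.3, 15.04 and 12.8 against 3.07, 8.33 and 7.36 CPM, and Ndc80 was 11.5, 10.6 and 14.1 against 2.02, 8.002 and 5.87 CPM. Both kept the groups apart, with Vldlr f/f replicate 1 the lowest library. Top2a was 44.4, 58.1 and 67.2 against 13.2, 31.2 and 41.4 CPM, Cdk1 32.2, 27.6 and 39.1 against 9.86, 26.03 and 19.4 CPM and Birc5 16.9, 16.7 and 25.03 against 3.81, 14.2 and 11.5 CPM. These did not overlap either, and for Cdk1 the gap between the lowest Cre and the highest Vldlr f/f library was small.

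The cytokinesis genes Racgap1, at 21.7, 28.2 and 48.3 against 9.56, 20.5 and 18.7 CPM, and Anln, at 19.1, 22.1 and 37.02 against 7.08, 13.1 and 16.9 CPM, were higher without overlap, and so was Cdc20, at 16.3, 17.4 and 39.4 against 10.8, 16.2 and 14.3 CPM. In each of them replicate 3 was the highest Cre library. Ect2 overlapped, at 10.9, 6.66 and 18.6 against 3.1, 9.97 and 5.75 CPM. The largest fold change was in Hmmr, a spindle pole protein, at 11.5, 19.8 and 34.5 against 2.87, 11.7 and 10.2 CPM (1.36 ± 0.62), and Ube2c was 43.8, 40.1 and 74.5 against 9.299, 43.8 and 17.3 CPM (1.35 ± 0.54). In both a Vldlr f/f library, replicate 2, reached the Cre range. The same holds for Ccnb1 (13.1, 19.3 and 40.4 against 2.94, 15.1 and 12.3 CPM) and Mki67 (89.7, 73.5 and 63.1 against 11.7, 85.7 and 60.5 CPM). The Vldlr f/f libraries spanned nearly the whole range of Mki67.

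Aurka (5.49, 10.5 and 18.8 against 3.36, 6.05 and 5.87 CPM), Kif11 (17.1, 21.6 and 31.1 against 5.52, 13.6 and 17.2 CPM) and Bub1 (6.398, 10.1 and 12.1 against 2.75, 4.92 and 6.71 CPM) had a higher mean with overlap. Aurkb, at 10.3, 5.63 and 7.04 against 3.07, 6.61 and 7.73 CPM, differed less (0.38 ± 0.34). Foxm1 was the single member with a lower mean, at 2.22, 4.61 and 9.01 against 1.89, 12.9 and 4.55 CPM (-0.10 ± 0.66, 95% interval -1.56 to 1.35). Its direction turned with upper quartile scaling and with some libraries left out. Of the other mitosis genes 51 of 53 were higher (median 0.52, 15 at unadjusted p under 0.05, none called). Ska1, which tracks microtubule ends at kinetochores, was 4.78 ± 0.177 against 1.52 ± 0.924 CPM (log2 fold change 1.27 ± 0.33, limma adjusted p = 0.997), Fam64a 12.1 ± 1.99 against 5.998 ± 2.71 CPM and Ckap2l 20.4 ± 6.95 against 9.17 ± 4.11 CPM. Of the marker lists, 7 of 8 macrophage markers were higher (132.9 to 177 against 124.6 to 152 CPM) and 6 of 7 epicardial markers (146 to 354 against 92.3 to 175 CPM), while cardiomyocyte markers were 55190 to 64760 against 57910 to 69900 CPM. Their part in the result was not tested.

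Myh6-Cre;Vldlr f/+ gave smaller differences from Vldlr f/f. Of 44 members 43 had a higher mean, where 41.7% of all genes did (median log2 fold change 0.53 against -0.057 over all genes), 1 did not overlap (2.2% of all genes did so in that direction) and 1 was higher at unadjusted p under 0.05 (0.932% of all genes were). No gene passed limma's adjusted test (0% called), and edgeR's quasi-likelihood test called none and had 1 member higher at unadjusted p under 0.05 (1.45% of all genes were). That member in limma was Kif2c, a microtubule depolymerase at centromeres, at 5.72, 5.79 and 9.55 CPM against 2.32, 4.95 and 4.61 CPM (0.71 ± 0.31, unadjusted p = 0.0473, limma adjusted p = 0.999). The lowest Myh6-Cre;Vldlr f/+ library was above the highest Vldlr f/f library. Without Vldlr f/f replicate 1 the median was 0.11, with 33 members higher and 11 lower.

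Borealin (Cdca8), a subunit of the passenger complex, was 10.4, 11.9 and 18.5 CPM in Myh6-Cre;Vldlr f/+ against 4.07, 10.7 and 9.197 CPM. Ube2c was 32.7, 27.6 and 76.9 against 9.299, 43.8 and 17.3 CPM (1.05 ± 0.54, the largest), and Ccna2 18.5, 36.3 and 41.8 against 10.2, 21.98 and 26.4 CPM. All 3 overlapped, with replicate 1 the lowest Myh6-Cre;Vldlr f/+ library for Cdca8 and Ccna2 and replicate 2 for Ube2c. In entry and chromosome structure, Foxm1 was 2.44, 11.8 and 8.68 CPM, Ccnb1 8.76, 19.2 and 27.7 CPM, Cdk1 15.8, 29.5 and 33.6 CPM, Mki67 52.9, 50.98 and 88.1 CPM and Top2a 23.8, 53.4 and 37.5 CPM in Myh6-Cre;Vldlr f/+. In the spindle and kinetochore, Aurka was 3.75, 8.17 and 13.9 CPM, Kif11 9.76, 18.97 and 20.2 CPM, Bub1 3.495, 9.35 and 6.72 CPM and Ndc80 6.26, 6.36 and 13.6 CPM. Each of these 9 overlapped the Vldlr f/f values given above.

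Later in mitosis, Aurkb was 5.02, 6.11 and 7.48 CPM, Birc5 7.26, 15.2 and 20.7 CPM, Cdc20 8.94, 22.3 and 26.8 CPM, Racgap1 12.5, 26.2 and 33.6 CPM, Ect2 9.68, 6.32 and 18.6 CPM and Anln 8.32, 22.8 and 23.7 CPM in Myh6-Cre;Vldlr f/+, again overlapping Vldlr f/f. Espl1 had the only lower mean, 4.69, 5.73 and 5.26 against 4.44, 6.25 and 6.16 CPM (-0.079 ± 0.25). Of the other mitosis genes 49 of 53 were higher (median 0.38), led by Ska1 at 3.42 ± 1.15 against 1.52 ± 0.924 CPM (0.85 ± 0.33, limma adjusted p = 0.999), Cenpw, a centromere protein (0.67 ± 0.40), and Cks2, a subunit of the cyclin-dependent kinases (0.73 ± 0.44). All 9 fibroblast markers (3483 to 5657 against 2989 to 4052 CPM), 7 of 7 epicardial markers (134 to 491 against 92.3 to 175 CPM) and 5 of 5 erythroid markers (2990 to 3960 against 1812 to 3846 CPM) also had a higher mean. Their part in the result was not tested.

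Between the genotypes that both carry Cre, 42 of 44 members had a higher mean in Myh6-Cre;Vldlr f/f than in Myh6-Cre;Vldlr f/+, where 39.8% of all genes did (median log2 fold change 0.36 against -0.058 over all genes). A single member did not overlap (0.677% of all genes did so in that direction), none was at unadjusted p under 0.05 (0.221% of all genes were higher at that p), and limma called no gene (0% called). By edgeR's quasi-likelihood test 1 member was higher at unadjusted p under 0.05 (0.322% of all genes were) and none was called. Ttk, the kinase that starts the spindle checkpoint, was the member without overlap, at 4.51, 4.39 and 4.73 against 2.29, 4.03 and 3.395 CPM; it was picked out after its values were seen. Without Myh6-Cre;Vldlr f/+ replicate 1 the median was 0.071, with 30 members higher and 14 lower.

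The smallest p was that of Kif20a, a motor of the central spindle, at 14.01, 22.2 and 42.3 CPM in Myh6-Cre;Vldlr f/f and 8.67, 18.7 and 15.8 CPM in Myh6-Cre;Vldlr f/+ (0.75 ± 0.40, unadjusted p = 0.0889, limma adjusted p = 0.9999). Nusap1 was 16.99, 19.1 and 25.5 against 4.57, 16.7 and 19.1 CPM (0.76 ± 0.51). Foxm1 (-0.41 ± 0.66) and the spindle pole gene Aspm, at 12.3, 8.51 and 11.5 against 11.5, 7.85 and 17.2 CPM (-0.12 ± 0.55), had the lower means. For the other members followed throughout, the log2 fold change was 0.35 ± 0.60 for Ccnb1, 0.37 ± 0.38 for Cdk1, 0.27 ± 0.59 for Mki67, 0.61 ± 0.41 for Top2a, 0.51 ± 0.42 for Kif11, 0.40 ± 0.49 for Aurka, 0.53 ± 0.39 for Bub1 and 0.50 ± 0.42 for Ndc80. In the later steps it was 0.24 ± 0.34 for Aurkb, 0.50 ± 0.47 for Birc5, 0.33 ± 0.43 for Cdc20, 0.30 ± 0.54 for Ube2c, 0.46 ± 0.43 for Racgap1, 0.074 ± 0.48 for Ect2 and 0.56 ± 0.44 for Anln. Spc25 (0.52 ± 0.36) was among the 4 smallest p. All of these overlapped, and Ect2 was nearly level between the genotypes.

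Same-numbered libraries of these genotypes deviated together in these same values, so they were also read as pairs. No label states that pairing, so the counts by pair describe the libraries and are no independent support. The member sum was higher in Myh6-Cre;Vldlr f/f in all 3 pairs, at 729 against 430 CPM, 772 against 682 CPM and 1123 against 955 CPM. Of the 44 members 18 were higher in all 3 pairs (6.11% of all genes were) and 0 were lower in all 3. Kif20a, Nusap1, Top2a, Kif11, Bub1 and Birc5 were among the 18, while Aurkb and Foxm1 were higher in 1 pair. With the replicate number as a block, 6 members were higher at unadjusted p under 0.05 (0.844% of all genes were) and none passed limma's adjusted test.

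Of the other mitosis genes 46 of 53 were higher (median 0.20, none called). Depdc1a (0.72 ± 0.48) and the centromere gene Cenpk (0.41 ± 0.29) were among the 3 with the smallest p (limma adjusted p = 0.9999 for each). Fibroblast markers were lower in 8 of 9 (3476 to 3893 against 3483 to 5657 CPM) and epicardial markers in 7 of 7 (146 to 354 against 134 to 491 CPM). Their part in the result was not tested. Mouse Kif4, outside the list by its name, was 2.45, 9.26 and 8.398 CPM in Vldlr f/f, 7.19, 12.4 and 11 CPM in Myh6-Cre;Vldlr f/+ and 10.6, 14.5 and 14.8 CPM in Myh6-Cre;Vldlr f/f.

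**Figure D4:**
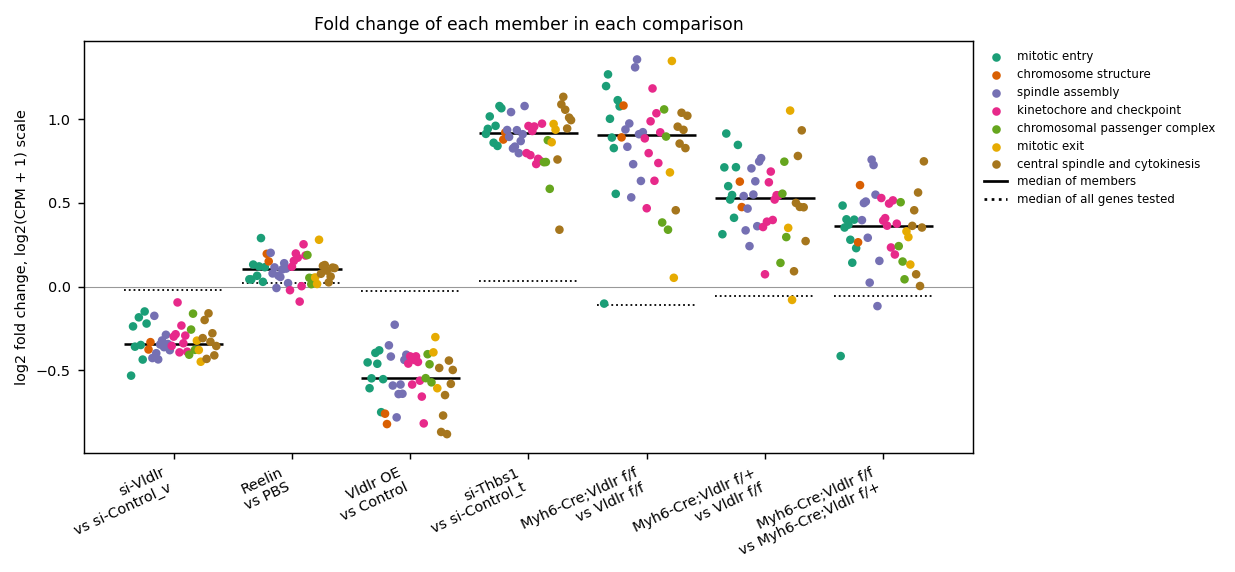
Log2 fold change (log2(CPM + 1) scale) of each of 44 members in each of 7 comparisons, 1 point per gene coloured by role, with a solid bar at the median of the members and a dotted bar at the median of all genes tested. From left to right the medians of the members are -0.34, 0.11, -0.55 and 0.92 in rat and 0.90, 0.53 and 0.36 in mouse.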

How the data were processed

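The authors deposited CPM values in 3 tables (12 and 4 rat libraries, 9 mouse libraries). Tools named in the submitters' processing notes are edgeR 3.20.9, HISAT2 2.1.0 and StringTie 1.3.4, with the builds mm10 and rn6, without their roles. Read numbers per library and the preparation of the mouse cells are not given in the sources used here. Names tied all columns to samples except 2 named Blank, which were assigned to Control by elimination and carry no replicate number (Control columns 1 and 2). Rows with a repeated name (4 per table) were left out.

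Members and gene lists were chosen with earlier results of these data known. The deposited CPM values were converted to log2(CPM + 1). Genes with at least 1 CPM in 2 libraries (rat) or 3 (mouse) were tested with limma 3.58.1 (R 4.3.3, intensity trend), all groups of a table in 1 fit, with Benjamini-Hochberg adjustment over all genes and calls at 0.05. No test crossed tables. All mouse values (100%) were whole multiples of a step within 0.05 steps, 66081626 to 78362841 steps per library. These were tested with edgeR 4.0.16, an alternative added after seeing the data, which called 0 genes in each of the 3 mouse comparisons. The step was first set so that the most common value above 0 held 4 steps, and was then refined. A step therefore need not be a read, and the steps per library and the edgeR test depend on that choice. In rat 99.1% to 99.3% of the values above 0 were whole multiples of a step and the rest were fractions of one, so they were not taken as recovered reads, no count test was run on them and their depth is unknown.

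Values are given for 16 members fixed by name (Foxm1, Ccnb1, Cdk1, Mki67, Top2a, Kif11, Aurka, Bub1, Ndc80, Aurkb, Birc5, Cdc20, Ube2c, Racgap1, Anln and Ect2) and, per comparison, for the 4 members with the smallest p, the largest change in each direction, called members, up to 4 of the opposite sign, and the 3 smallest p of the other mitosis genes. Same-numbered libraries deviated together in Myh6-Cre;Vldlr f/f and Myh6-Cre;Vldlr f/+ (correlations across genes of 0.46, 0.44 and 0.33), so these numbers were also read as pairs. No label states that pairing. Alternatives were the pseudocount (0.5 and 0.1), no filter, upper quartile and median ratio scaling, 2 groups alone, the replicate block, and each library left out. A gene of the list of other mitosis genes that the naming rule picked is not reported here.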

Additional observations from a re-analysis of the deposited data

How the results depend on the processing

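No member was called in any comparison by another pseudocount, without the filter, under either scaling or, where run, with 2 groups alone. Calls appeared in 2 comparisons only. With each library left out in turn, the members called ranged from 0 to 27 for Vldlr OE and from 0 to 28 for si-Thbs1. With the replicate block 9 members were called for si-Thbs1, and the block changed no other call. For si-Vldlr, Reelin and si-Thbs1 the 2 same-numbered pairs (correlations 0.16, -0.063 and 0.41) are too few to show pairing. With Vldlr f/f they were -0.37, -0.29 and 0.055 for Myh6-Cre;Vldlr f/f and -0.28, -0.55 and -0.052 for Myh6-Cre;Vldlr f/+. No counts by pair were made with Vldlr f/f, and the labels do not say whether these numbers pair. The block was run there too. It put 23 members higher at unadjusted limma p under 0.05 in Myh6-Cre;Vldlr f/f and 3 in Myh6-Cre;Vldlr f/+. In these fits 2.33% and 1.56% of all genes had such a p in either direction, and no member was called. Between the Cre genotypes, with the numbers read as pairs, the block put 6 members (0.844% of all genes) higher at unadjusted p under 0.05. Without the block 0 members were, and the block called none. No paired analysis was possible for Vldlr OE because the Control columns carry no replicate number.

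The median of the members for Reelin was 0.081 with upper quartile scaling and 0.078 to 0.14 with each library left out, and the cause was not tested. With each library left out, the medians ranged over -0.42 to -0.25 for si-Vldlr, -0.995 to -0.086 for Vldlr OE, 0.68 to 1.10 for si-Thbs1, and in mouse 0.53 to 1.14, 0.11 to 0.81 and 0.071 to 0.59 in the order of the report. These medians kept their sign. Among the members that the report names by rule, none of them called, those below changed sign under 1 or more alternatives, other members did so too, and the cause was not tested. Ube2c in Reelin was -0.008 with upper quartile and -0.005 with median ratio scaling, and Foxm1 in Myh6-Cre;Vldlr f/f was 0.002 relative to Vldlr f/f with upper quartile scaling. With libraries left out, the log2 fold change ranged for si-Vldlr over -0.36 to 0.17 in Nuf2 and -0.36 to 0.042 in Anln. For Reelin the range was -0.059 to 0.15 in Foxm1, -0.069 to 0.054 in Kif18b, -0.081 to 0.11 in Ube2c, -0.21 to 0.028 in Spc24, -0.002 to 0.23 in Kif11 and -0.044 to 0.003 in Bub1. For Vldlr OE it was -0.90 to 0.11 in Cdk1, -0.76 to 0.059 in Aurka, -0.52 to 0.066 in Kif18b, -0.94 to 0.11 in Ndc80, -0.88 to 0.074 in Birc5, -0.87 to 0.088 in Cdc20 and -0.79 to 0.19 in Ube2c. Against Vldlr f/f it was -0.64 to 0.50 for Foxm1 in Myh6-Cre;Vldlr f/f, and in Myh6-Cre;Vldlr f/+ -0.22 to 0.91 for Foxm1, -0.21 to 1.17 for Mki67 and -0.19 to 0.36 for Aurkb. Between the Cre genotypes it was -0.081 to 0.70 for Ccnb1, -0.036 to 0.80 for Aurka, -0.12 to 0.62 for Cdc20, -0.27 to 0.46 for Ect2 and -0.37 to 0.15 for Aspm.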
